A study of Mus musculus with 48 samples.

Results

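The 24 single cells labelled HEC (hemogenic endothelial cells, in the usual sense of the term) were ordered by a blood-fate score, and the 8 cells at the top were set against the 8 at the bottom. The score of a cell was the mean of log2(value + 0.1) over 6 genes of the blood programme, *Runx1*, *Myb*, *Gfi1*, *Spi1*, *Ptpn6* and *Coro1a*. The values were gene levels in reads per 10000 reads of the cell, so they are relative to everything else that the cell yielded. The 24 HEC are part of 48 single cells, each read as full-length, polyadenylated cDNA on a nanopore sequencer, which gives transcripts as well as genes. The other 24 cells are labelled AEC (arterial endothelial cells). All 48 were wild-type cells sorted from the aorta-gonad-mesonephros (AGM) region of C57 mouse embryos at embryonic day 10. The labels name no treatment or allele, do not give the markers of the sort and do not say which embryo a cell came from. The cell type tag of the HEC reads "Hematopoietic stem cells", while their titles read HEC.

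Each GEO sample is 1 cell and no embryo is named, so each label stands for 1 sample. The 8 high-score and 8 low-score cells were also picked from their own measured values. No test was therefore made, and every difference below is a description of these cells, with the spread (SD) taken over cells. A log2 ratio is that of the mean of the 8 high-score cells over the mean of the 8 low-score cells, each with 0.1 added, so it understates the fold of genes near 0. Beside it stands the number of the 64 pairs of 1 high-score and 1 low-score cell in which the high-score cell had the higher or the lower value.

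In the AGM, blood stem and progenitor cells arise from the endothelium that lines the dorsal aorta. Hemogenic endothelial cells are the endothelial cells that make this change: they take up the transcription factor Runx1, lose arterial and endothelial genes step by step, and leave the wall as round cells. Runx1 is made from a distal and a proximal promoter, and Gfi1, its target in mouse, represses endothelial genes. Notch signalling sets the arterial identity from which these cells come, and is known to be lowered as blood cells form.

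The high-score cells were HEC 1, 19, 22, 24, 5, 10, 12 and 9, with scores of 1.2 down to 0.71 and a median of 0.91. The low-score cells were HEC 4, 21, 16, 23, 14, 8, 20 and 7, with scores of 0.24 down to -2.19 and a median of -0.16. The other 8 HEC lay between, with a median of 0.39. The cells on either side of the limits were close: HEC 9 was taken at 0.71 and HEC 15 was not at 0.60, while HEC 4 was taken at 0.24 and HEC 3 was not at 0.31. HEC 20 at -1.56 and HEC 7 at -2.19 stood apart from the next cell, HEC 8 at -0.30. The 24 AEC scored between -3.05 and -0.29 with a median of -2.53, so HEC 8, 20 and 7 lay within the range of the AEC. That holds for the score, which is made of blood genes only. HEC 20 had the lowest levels of the endothelial genes *Cdh5* (0.42) and *Kdr* (0.12) of all HEC, and 0.48 of *Pecam1*. In HEC 7 these were 6.4, 4.37 and 4.24. The *Id3* level of HEC 20, 13.3, was the highest of all HEC. A low score was thus not in itself a mark of endothelial identity. Values without HEC 7 and HEC 20, most with the remaining 22 HEC ranked again, are given beside the main genes and lists that they move.

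The sequencing depth overlapped between the groups. The high-score cells had 251809 to 8897958 reads (median 901945.5), and the low-score cells had 96410 to 2168236 reads (median 692506.5). A median of 11684 genes was read in high-score cells, against 9909.5 in low-score cells. Over the 24 HEC, Spearman's rank correlation was 0.20 between the score and the reads and 0.35 between the score and the number of genes, which is a description of these cells. In HEC 8, the shallowest HEC, 1 read was worth 0.104 reads per 10000, so values near that level in this cell rest on a few reads. *Xist* stood at 1 read per 10000 or more in 0 high-score and 3 low-score cells, and a Y-linked gene did in 1 high-score and 3 low-score cells. X- and Y-linked genes of the fixed list were left out of the genes named.

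**Figure D1:**
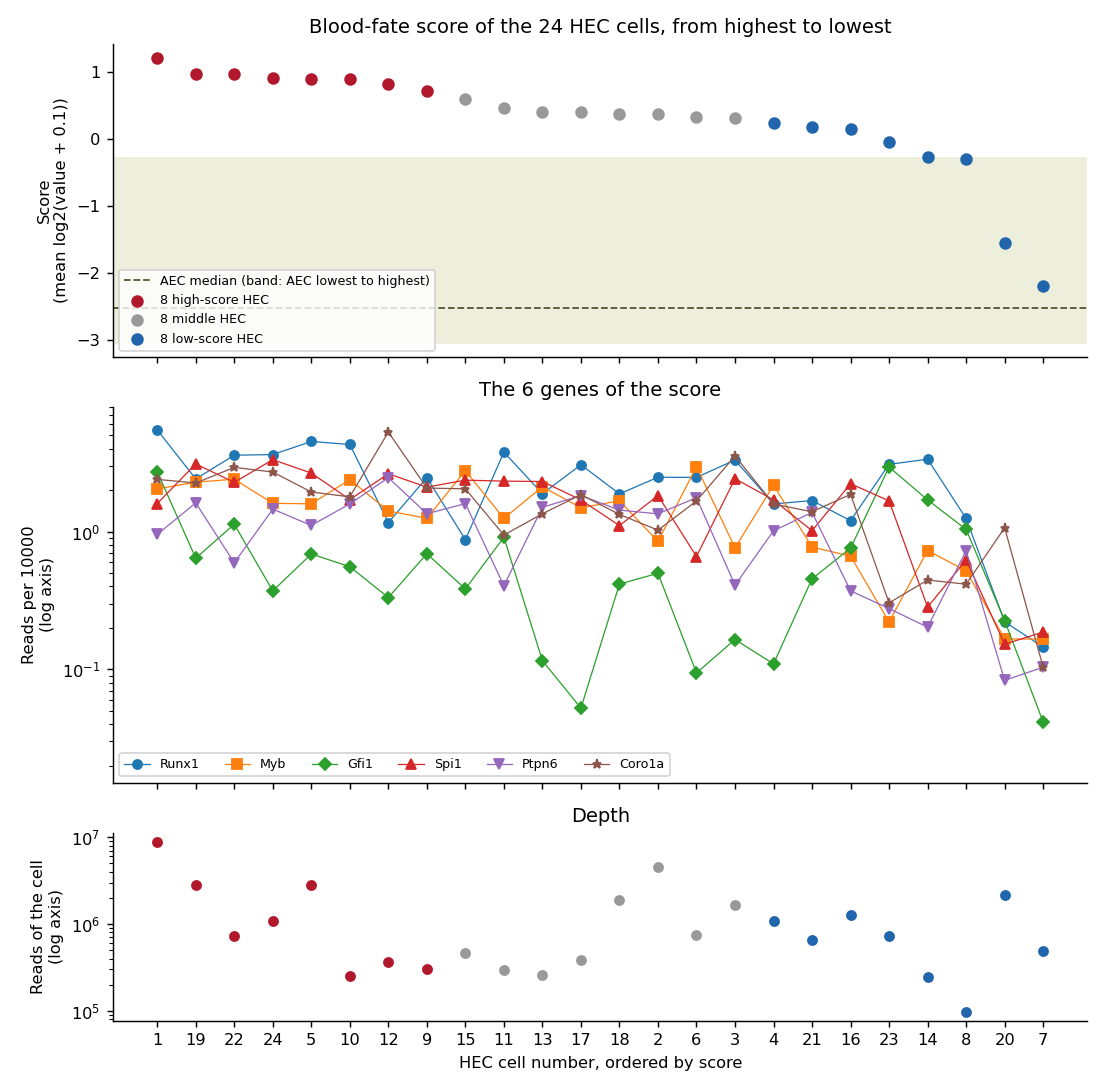
The 24 HEC cells ordered by blood-fate score from high to low. The top panel gives the score with the AEC range as a band and the AEC median as a dashed line, the middle panel gives the 6 score genes in reads per 10000 (log axis), and the bottom panel gives the reads of each cell (log axis). HEC 20 and HEC 7 lie at -1.56 and -2.19, well under the other 22 cells.

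The sequences around the start sites are given first, because the factors in the score bind known letters. RefSeq's promoter table for GRCm38.p6 holds 300 bases a start, 250 before it and 50 after it, and covers 5 of the 6 score genes with 8 windows. They were searched on both strands for TGTGGT (core letters of RUNX sites), GAGGAAGT (PU.1, the product of *Spi1*) and TAACNG (MYB). The *Runx1* windows at chr16:92826025-92826324 and chr16:92697280-92697579 and the *Neurl3* window at chr1:36273376-36273675, all on the minus strand, are shown because *Runx1* heads the score and *Neurl3* separated the groups. Capitals mark the RUNX letters, which read ACCACA on this strand.
Runx1 distal: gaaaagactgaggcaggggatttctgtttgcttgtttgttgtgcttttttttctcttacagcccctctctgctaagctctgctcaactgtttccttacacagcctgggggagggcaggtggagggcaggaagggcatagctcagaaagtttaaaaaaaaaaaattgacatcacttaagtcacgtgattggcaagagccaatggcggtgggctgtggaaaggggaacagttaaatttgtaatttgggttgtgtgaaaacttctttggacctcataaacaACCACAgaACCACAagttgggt
Runx1 proximal: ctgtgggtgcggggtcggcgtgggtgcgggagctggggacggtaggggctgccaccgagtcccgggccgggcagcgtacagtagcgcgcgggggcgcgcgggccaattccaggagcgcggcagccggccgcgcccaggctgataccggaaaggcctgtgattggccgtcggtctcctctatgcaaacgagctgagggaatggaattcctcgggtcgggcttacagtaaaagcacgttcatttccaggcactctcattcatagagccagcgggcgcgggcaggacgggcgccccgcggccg
Neurl3: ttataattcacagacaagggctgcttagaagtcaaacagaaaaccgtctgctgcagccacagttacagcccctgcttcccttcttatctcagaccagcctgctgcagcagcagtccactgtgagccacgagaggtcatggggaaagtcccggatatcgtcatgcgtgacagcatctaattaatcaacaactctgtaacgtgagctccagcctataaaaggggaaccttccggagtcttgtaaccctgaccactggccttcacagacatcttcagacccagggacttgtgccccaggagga
The distal *Runx1* window held the RUNX letters at 2 places, 28 and 36 bases past the start, and the proximal window held none. Of all 32851 windows, 16.8% held the RUNX letters, 3.2% the PU.1 letters and 23.3% the MYB letters. Of the 8 windows of score genes, 1 (12.5%) held RUNX letters and 1 (12.5%) MYB letters. The 14 genes highest in high-score cells, named below, had 13 windows for 10 genes, of which 2 (15.4%) held RUNX letters and 2 (15.4%) MYB letters. The 14 lowest had 14 windows for 11 genes, of which 0 held RUNX letters and 2 (14.3%) MYB letters. None of these 3 sets of windows held the PU.1 letters. A match is a run of letters and not a bound site, and a window without one says only that these letters are not in it.

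The 6 score genes chose the cells, so their values are given without further reading. *Runx1*, the master factor of the endothelial-to-blood change, had 1.16 to 5.48 reads per 10000 in high-score cells (median 3.61), against 0.145 to 3.36 in low-score cells (median 1.42). Its AEC mean was 0.438. *Spi1*, which encodes the myeloid factor PU.1, averaged 2.42 ± 0.62 in high-score cells and 0.981 ± 0.799 in low-score cells. *Myb*, needed for definitive blood, averaged 1.87 ± 0.462 in high-score cells and 0.676 ± 0.654 in low-score cells. *Ptpn6*, a tyrosine phosphatase of blood cells, averaged 1.39 ± 0.554 in high-score cells and 0.519 ± 0.473 in low-score cells. *Coro1a*, an actin-binding protein of leukocytes, averaged 2.67 ± 1.12 in high-score cells and 0.897 ± 0.666 in low-score cells. *Gfi1*, the Runx1 target that represses endothelial genes, was level: it averaged 0.891 ± 0.778 in high-score cells and 0.908 ± 0.989 in low-score cells. Its highest values were 2.94 in HEC 23, a low-score cell, and 2.72 in HEC 1, the top cell, and its mean in the 8 middle cells was 0.329. Its level means did not leave it without weight in the ranking. A score without *Gfi1* kept 7 of the high-score and 7 of the low-score cells, as did scores without *Runx1*, *Ptpn6* or *Coro1a*.

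Of 3251 genes whose HEC mean was 0.5 or more, 78 (2.4%) were at least 2-fold higher in high-score cells and 118 (3.63%) at least 2-fold lower. With the further condition that at least 48 of the 64 pairs went the same way, 68 genes (2.09%) were higher and 62 (1.91%) lower. The median log2 ratio of all 3251 was -0.03, with 1521 above 0, so neither direction dominated. Without HEC 7 and HEC 20, 94 genes were at least 2-fold higher and 126 at least 2-fold lower with the other cells as ranked. With the remaining cells ranked again there were 47 higher, 25 of them among the 78, and 93 lower, 55 of them among the 118.

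The groups did not overlap for 1 gene above (0.0308% of 3251) and 1 gene below (0.0308%). The gene above was *Neurl3* (ENSMUSG00000047180, chr1:36264597-36274679, minus strand), an E3 ubiquitin ligase of the neuralized family known as a marker of hemogenic endothelium in mouse. It had 2.30 to 4.89 reads per 10000 in high-score cells (median 2.91), against 0.24 to 2.26 in low-score cells (median 1.08). The mean was 3.05 ± 0.812 in high-score cells and 1.2 ± 0.786 in low-score cells, a log2 ratio of 1.27. The middle cells averaged 3.27, as high as the high-score cells, and the AEC averaged 0.376. Low *Neurl3* was thus seen towards the bottom of the ranking. Its log2 ratio was 1.03 without HEC 7 and HEC 20, and 0.75 when the remaining cells were ranked again. The gene below was *Yipf5*, a protein of transport between the endoplasmic reticulum and the Golgi, at chr18:40203896-40219429 on the minus strand. It had 0.124 to 0.691 reads per 10000 in high-score cells (median 0.249), against 0.696 to 3.02 in low-score cells (median 0.837). The nearest values, 0.691 in HEC 12 and 0.696 in the lowest of the low-score cells, almost touched. The middle cells spread over both groups, from 0.0632 in HEC 18 to 2.56 in HEC 11, so *Yipf5* did not follow the ranking through them. The AEC averaged 0.876 and also spread over both groups.

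**Figure D2:**
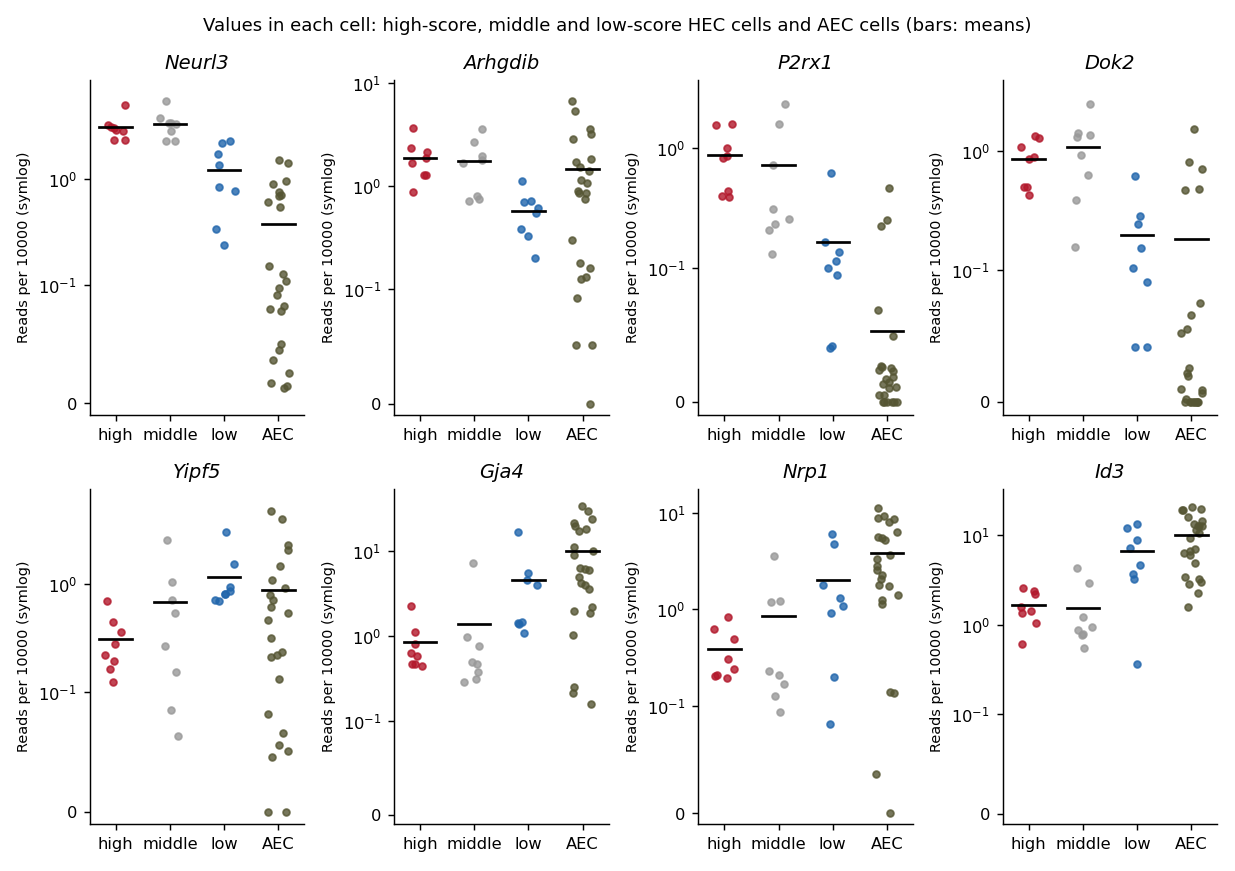
Reads per 10000 in each cell (symmetric log axis, linear near 0) for 4 genes higher and 4 genes lower in high-score HEC, with dots for cells and bars for group means. *Neurl3* and *Yipf5* are the genes whose high-score and low-score cells do not overlap, and the 8 middle cells stay near the high-score cells for *Neurl3* at a mean of 3.27.

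The 14 genes with the largest ratios upward among those that met both conditions included several that are known from blood cells. *Arhgdib*, an inhibitor of small GTPases in blood cells (chr6:136923655-136941899, minus strand), had 0.882 to 3.65 reads per 10000 in high-score cells (median 1.80), against 0.202 to 1.12 in low-score cells (median 0.585). High-score cells were above in 63 of 64 pairs, and the log2 ratio was 1.55. Its AEC mean of 1.46 stood above that of the low-score HEC. *P2rx1*, an ATP-gated channel of platelets and leukocytes (ENSMUSG00000020787, chr11:72999103-73015200, plus strand), had 0.389 to 1.58 in high-score cells (median 0.844), against 0.0404 to 0.622 in low-score cells (median 0.108). The log2 ratio was 1.89 with 61 of 64 pairs above, and the AEC mean was 0.0533. The single low-score value in the range of the high-score cells was that of HEC 8, the shallowest cell. *Dok2*, an adaptor that restrains signalling in blood cells (chr14:70766036-70778495, plus strand), had 0.429 to 1.34 in high-score cells (median 0.874), against 0.0414 to 0.611 in low-score cells (median 0.128). Its log2 ratio was 1.69 with 61 of 64 pairs above. The ratio was under 2-fold, at 0.33, when HEC 7 and HEC 20 were left out and the rest ranked again, and the middle cells averaged 1.08, more than the high-score cells.

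*Pla2g4a*, the phospholipase that frees arachidonic acid (chr1:149829618-149961290, minus strand), averaged 1.06 ± 0.761 in high-score cells and 0.26 ± 0.322 in low-score cells, with 58 of 64 pairs above. *Cebpb*, a leucine-zipper factor of myeloid cells, averaged 0.809 ± 0.516 in high-score cells and 0.217 ± 0.244 in low-score cells, with 55 pairs above. *Dusp2*, a MAP kinase phosphatase of leukocytes, averaged 1.34 ± 0.796 in high-score cells and 0.369 ± 0.422 in low-score cells, with 55 pairs above. These 3 shared a pattern in which the median low-score cell was near 0 and the high-score cells spread widely. *Zfp36*, which encodes a protein that speeds the decay of AU-rich mRNAs, averaged 0.955 ± 0.685 in high-score cells and 0.233 ± 0.186 in low-score cells, with a log2 ratio of 1.66. With HEC 7 and HEC 20 left out and the rest ranked again, *Pla2g4a*, *Cebpb* and *Zfp36* were under 2-fold, at 0.61, 0.94 and 0.45.

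The others of the 14 differed in how far single cells carried their ratios. With each cell left out in turn, the lowest log2 ratio was 1.73 for *Ppm1f*, 1.64 for *St3gal1*, 1.51 for *Fam84b* and 1.08 for *Ints1*. *Ppm1f*, a serine/threonine phosphatase, had a log2 ratio of 2.25, the largest of the 14, with a median of 0.586 in high-score cells and 0.087 in low-score cells. *St3gal1*, a sialyltransferase, followed at 2.2, with medians of 0.678 in high-score cells and 0.0587 in low-score cells, and was at 0.98 with HEC 7 and HEC 20 left out and the rest ranked again. In that ranking 9 of the 14 were still at least 2-fold higher. *Fam84b* and *Ints1*, a subunit of the Integrator complex, stood at 1.82 and 1.52. *Actc1* and *Acta2*, 2 actins of muscle, were at 1.65 and 1.56, and at 0.79 and 0.80 without HEC 1, which had 9.11 and 31.1 reads per 10000 of them. HEC 1 was also the deepest cell and had the highest score, and AEC averaged 12.8 for each of the 2 actins. Reads of closely similar actin genes may have been split between them. Over the 14, the difference of means was beyond the SDs of both groups for 7 genes and within the SD of the high-score cells for the other 7. The middle cells had a mean between the groups for 10 of the 14 and above both for 4. The AEC mean lay under that of the high-score cells for 12, with *Actc1* and *Acta2* the exceptions.

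The lists of blood genes were read against all 8480 genes with a mean of at least 0.1, of which 525 (6.19%) were at least 2-fold higher and 538 (6.34%) at least 2-fold lower, with a median log2 ratio of -0.02. Of 30 blood transcription factors, the score genes apart, 25 had that mean, and their median was 0.42. Among them 20 had a ratio above 0, 6 were at least 2-fold higher and 1 was at least 2-fold lower. *Ikzf1*, the lymphoid factor Ikaros, averaged 0.841 ± 1.45 in high-score cells and 0.0548 ± 0.104 in low-score cells, and its log2 ratio of 2.60 was 1.51 with HEC 10 left out. *Myc* averaged 1.02 ± 0.966 in high-score cells and 0.174 ± 0.224 in low-score cells, and *Mycn*, its relative in stem and progenitor cells, 2.44 ± 1.42 in high-score cells and 0.926 ± 1.05 in low-score cells. *Nfe2*, a megakaryocyte and erythroid factor, averaged 0.891 ± 0.507 in high-score cells and 0.289 ± 0.322 in low-score cells, with 57 of 64 pairs above. With HEC 7 and HEC 20 left out and the rest ranked again, the median of the list was 0.22 and *Mycn* was under 2-fold at 0.75.

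Other blood factors were higher by less than 2-fold, or lower. *Gata2*, a stem cell factor active already in endothelium, averaged 1.26 ± 0.941 in high-score cells and 0.591 ± 0.572 in low-score cells, just under 2-fold at 0.98. *Tal1*, required for the earliest blood and endothelial cells, had a log2 ratio of 0.42, and 0.03 without HEC 24. *Gfi1b*, the paralogue of *Gfi1*, was highest in the middle cells at 0.451, with 0.0935 in high-score and 0.0393 in low-score cells. *Hlf*, a factor of stem cells, was the one at least 2-fold lower, with 0.48 ± 0.526 in high-score cells and 1.13 ± 1.36 in low-score cells. Its pairs were nearly even, 30 above and 34 below, and its value rested on HEC 21 at 3.36.

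Surface molecules of hemogenic endothelium and stem cells showed the same tilt. Of 20, 17 had the mean asked for, with a median of 0.62, 13 above 0, 6 at least 2-fold higher and 2 at least 2-fold lower. *Kit*, the stem cell factor receptor, had 1.08 to 4.24 reads per 10000 in high-score cells (median 2.35), against 0.145 to 2.62 in low-score cells (median 1.17). The ranges overlapped, with 53 of 64 pairs above and a log2 ratio of 1.06, which was 0.74 without HEC 7 and HEC 20 and 0.68 with the rest ranked again. *Adgrg1*, the adhesion receptor GPR56, had 3.72 to 6.79 in high-score cells (median 5.32), against 0.248 to 5.56 in low-score cells (median 3.34). Its log2 ratio of 0.86 was 0.44, and the median of the list 0.24, with HEC 7 and HEC 20 left out and the rest ranked again. *Itgb3*, an integrin of platelets and early progenitors chosen after its value was seen, averaged 2.46 in high-score cells and 0.981 in low-score cells, with 61 of 64 pairs above. *Ptprc*, the gene of CD45 on all leukocytes, was under 1 read per 10000 in every HEC of both groups, with means of 0.143 in high-score and 0.00559 in low-score cells. *Cd44* and *Procr*, 2 surface proteins used to sort pre-stem cells, had log2 ratios of -0.21 and 0.08, and both changed sign under some of the alternatives run. The 2 at least 2-fold lower were *Cd27*, at -1.49 and near 0 in most cells, and *Emcn*, an endothelial sialomucin, at -1.35, at -0.24 without HEC 7 and at -0.34 without HEC 7 and HEC 20.

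The list of leukocyte signalling and actin genes held 29, of which 17 had the mean asked for. Their median of 0.15 lay near that of all genes, and was -0.01 without HEC 7 and HEC 20. The 3 members at least 2-fold higher were *Dock2* and *Sash3*, at 1.72 and 1.64 and both under 0.35 on average, and *Arhgdib*. *Tmsb4x*, an abundant actin-binding peptide chosen after its value was seen, was lower in high-score cells in 57 of 64 pairs, with a log2 ratio of -0.80. Of 10 arachidonic acid and leukotriene genes 6 had the mean asked for, and all 6 were above 0, with a median of 0.82 and 2 at least 2-fold higher. Besides *Pla2g4a* these were *Ptgs1*, cyclooxygenase-1, which averaged 0.877 ± 0.496 in high-score cells and 0.271 ± 0.392 in low-score cells. Ranked again without HEC 7 and HEC 20, *Ptgs1* was at 0.77 and the median of the list at 0.55. *Alox5ap*, the activator of 5-lipoxygenase, averaged 1.54 ± 0.997 in high-score cells and 0.865 ± 0.915 in low-score cells, a difference within both SDs.

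The genes lower in high-score cells were led by arterial ones. *Gja4*, which encodes the arterial gap junction protein connexin 37 (ENSMUSG00000050234, chr4:127311421-127314039, minus strand), had 0.445 to 2.27 reads per 10000 in high-score cells (median 0.605), against 1.09 to 17 in low-score cells (median 2.76). High-score cells were below in 59 of 64 pairs. The log2 ratio of -2.30 was -1.61 without HEC 7, which held the value of 17. The AEC mean was 9.97. *Nrp1*, the VEGF and semaphorin co-receptor of arteries (chr8:128358604-128503363, plus strand), had 0.194 to 0.832 in high-score cells (median 0.273), against 0.083 to 6.03 in low-score cells (median 1.19). Its log2 ratio was -2.12 with 49 pairs below, and the low-score cells spread under, over and above the range of the high-score cells. *Hey1*, a Notch effector (chr3:8663359-8667256, minus strand), had 0.0185 to 0.756 in high-score cells (median 0.115), against 0.207 to 4.43 in low-score cells (median 0.715). The log2 ratio was -2.04 with 58 pairs below, and -1.35 without HEC 7.

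*Id3*, an inhibitor of helix-loop-helix factors (chr4:136143497-136145755, plus strand), had 0.608 to 2.53 reads per 10000 in high-score cells (median 1.49), against 0.365 to 13.3 in low-score cells (median 5.91). The mean was 1.64 ± 0.674 in high-score cells and 6.64 ± 4.49 in low-score cells, with 56 pairs below. The middle cells averaged 1.54, slightly under the high-score cells, so high values of *Id3* were found at the bottom of the ranking, as in the AEC at 9.86. *Igfbp2*, which binds insulin-like growth factors, averaged 0.454 ± 0.379 in high-score cells and 1.73 ± 1.16 in low-score cells. *Aldh7a1*, an aldehyde dehydrogenase, averaged 0.327 ± 0.271 in high-score cells and 1.27 ± 0.722 in low-score cells, and it was the one of the 14 lowest genes whose AEC mean, 0.289, was under that of the high-score cells. *Pdia5*, a disulfide isomerase, averaged 0.193 ± 0.149 in high-score cells and 0.975 ± 0.735 in low-score cells. *Gadd45g*, a growth arrest gene, averaged 0.211 ± 0.127 in high-score cells and 1.09 ± 1.05 in low-score cells, with 1.34 in the middle cells.

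The other 5 of the 14 lowest, *Efna1* (an ephrin ligand), *Cald1* (caldesmon), *Sat1* (polyamine breakdown), *Ctsl* (cathepsin L) and *App* (amyloid precursor), had log2 ratios of -1.98, -1.80, -1.80, -1.75 and -1.52. HEC 7 held the highest value of its group for 7 of the 14 lowest genes, and *Ctsl* was under 2-fold without it, at -0.91, and at -0.77 with HEC 20 also left out and the rest ranked again. Over the 14, the difference of means was beyond both SDs for 5 genes and within the SD of the low-score cells for 9. The middle cells had a mean between the groups for 12.

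Of the 20 arterial genes listed, 18 had a mean of at least 0.1, 1 had a ratio above 0, and 12 were at least 2-fold lower in high-score cells, with a median of -1.36. Without HEC 7 and HEC 20 the median was -1.27, and -0.98 when the rest were ranked again. The levels of the 20 added up to 5.54 to 43.1 reads per 10000 in high-score cells (median 8.64), against 4.52 to 66.4 in low-score cells (median 25.2) and a median of 44.4 in AEC. The groups overlapped from end to end although their medians lay apart. The 43.1 was that of HEC 12, in which *Gja5* alone, described below, had 39.1. Not all of the 12 held pair by pair. *Edn1*, endothelin-1, had the lowest log2 ratio of the list at -2.67 but was below in only 38 of 64 pairs, with HEC 21 at 6.99. *Jag1*, a Notch ligand, stood at -1.86 with 38 pairs below and *Sox17*, an arterial factor, at -1.94 with 39. *Hey2*, the other Hey factor of arteries, stood at -1.11 with its pairs even, 32 above and 32 below, and at -0.44 with HEC 7 and HEC 20 left out and the rest ranked again. *Dll4*, the arterial Notch ligand, averaged 0.251 ± 0.422 in high-score cells and 0.734 ± 0.804 in low-score cells. *Gja5*, connexin 40, was the 1 above 0: it averaged 6.27 ± 13.3 in high-score cells and 4.21 ± 5.07 in low-score cells. HEC 12 alone had 39.1, or 78.0% of the sum of the 8 high-score cells, and without it the log2 ratio was -1.36.

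General endothelial genes leaned the same way by less. Of 21, 20 had the mean asked for, 1 was above 0, 0 were at least 2-fold higher and 2 at least 2-fold lower, with a median of -0.63. That median was -0.43 without HEC 7 and HEC 20 and -0.24 with the rest ranked again. *Pecam1* and *Kdr*, the endothelial adhesion molecule CD31 and the VEGF receptor, had log2 ratios of -0.63 and -0.93. *Cdh5*, VE-cadherin, was nearly level at 4.21 ± 5.08 in high-score cells and 4.33 ± 2.49 in low-score cells, and its log2 ratio of -0.04 became -0.79 without HEC 9, which had 16.4. *Plvap*, a protein of endothelial diaphragms, was at -1.01, at -0.38 without HEC 7 and at -0.37 without HEC 7 and HEC 20 ranked again. The Notch list had 14 of 17 with the mean asked for, a median of -0.41 and 5 at least 2-fold lower, 0 higher. Of 20 matrix and adhesion genes 18 had the mean asked for, of which 3 were at least 2-fold lower and 0 higher, with a median of -0.38 that was -0.13 with HEC 7 and HEC 20 left out and the rest ranked again. Among these *Sparc*, a secreted matrix protein, averaged 2.54 ± 1.42 in high-score cells and 6.91 ± 6.14 in low-score cells, with 54 pairs below, and its log2 ratio of -1.41 was -0.85 in that ranking. Only 2 of 9 venous genes had the mean asked for, with a median of -0.25.

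**Figure D3:**
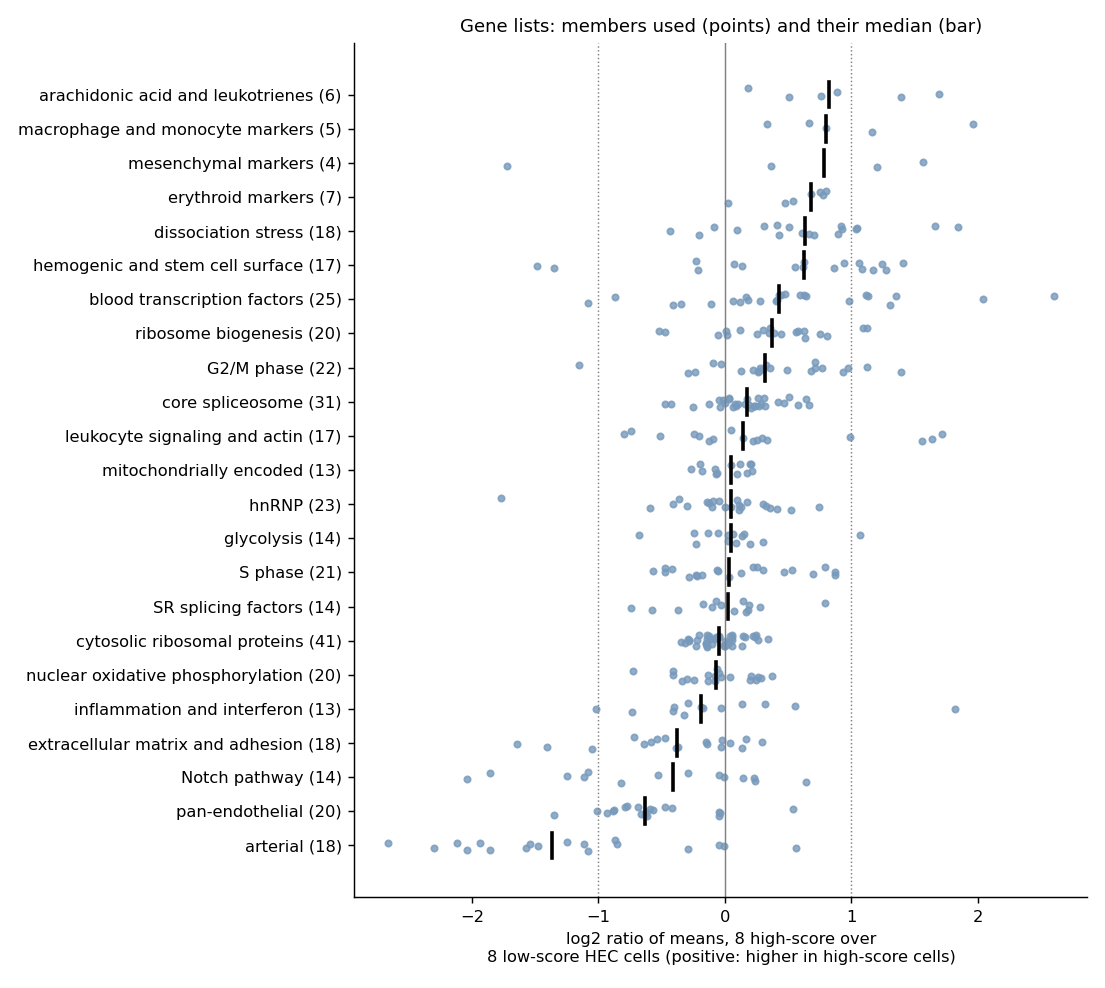
Log2 ratio of the mean of the 8 high-score over the mean of the 8 low-score HEC for each list with at least 4 members of a mean of 0.1 or more (points are genes, bars medians, dotted lines mark 2-fold, numbers in brackets count the genes). The arterial list has the lowest median, -1.36, and the splicing, ribosomal and mitochondrial lists lie near 0.

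The machinery of RNA processing differed little between the groups. The 14 SR splicing factors had a median of 0.02 with 7 above 0, and the sign of that median changed with the scaling, to -0.03 with median-of-ratios factors. None of the 14 was 2-fold higher or lower. *Srsf2*, a regulator of exon choice, averaged 4.33 ± 1.37 in high-score cells and 3.81 ± 2.15 in low-score cells, a difference within both SDs. *Srsf11* and *Srsf4*, its relatives, stood at -0.74 and 0.79. The 23 hnRNP genes had a median of 0.05 (just under 0 with median-of-ratios factors), with 1 at least 2-fold lower. That gene, *Hnrnpul1*, was at -1.77, and at -0.10 without HEC 8, which had 13.6 reads per 10000. *Pcbp1*, a poly(C)-binding protein, averaged 6.94 ± 2.08 in high-score cells and 4.11 ± 1.88 in low-score cells, with 54 pairs above. The 31 core spliceosome genes had a median of 0.17, 23 above 0 and none 2-fold either way, and a median of 0.06 with HEC 7 and HEC 20 left out and the rest ranked again.

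Growth and cycle genes differed by small amounts. Of 20 ribosome biogenesis genes, 17 were above 0 and 2 were at least 2-fold higher, with a median of 0.37. The 2 were *Polr1b*, a subunit of RNA polymerase I, at 1.12, and *Nop2*, a nucleolar methyltransferase, at 1.09, which averaged 0.824 ± 0.423 in high-score cells and 0.334 ± 0.339 in low-score cells. With HEC 7 and HEC 20 left out and the rest ranked again, the median was 0.08, and *Polr1b* and *Nop2* were under 2-fold at 0.71 and 0.31. For the 41 genes of cytosolic ribosomal proteins the median was -0.05, and their levels added up to 670.2 to 973 reads per 10000 in high-score cells, against 684 to 972 in low-score cells. The 13 mitochondrially encoded genes and the 20 nuclear genes of oxidative phosphorylation had medians of 0.05 and -0.07. Of 14 glycolysis genes, *Hk2*, hexokinase 2, alone was at least 2-fold higher, at 1.07 with 54 pairs above, and it was under 2-fold at equal depth, at 0.48, and at 0.83 without HEC 7 and HEC 20 ranked again. The 21 S phase genes had a median of 0.03 with none 2-fold either way, and the 22 G2/M genes one of 0.31 with 2 at least 2-fold higher and 1 lower. The medians of the ribosomal protein, mitochondrial, oxidative phosphorylation and S phase lists changed sign under some of the alternatives run. *Top2a*, the topoisomerase of dividing cells, was at 1.12, at 0.47 without HEC 5 and at 0.52 without HEC 7 and HEC 20 ranked again. *Nusap1*, a spindle protein, was at 1.39, and at 0.35 without HEC 12.

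Genes induced when tissue is taken apart were higher in high-score cells. Of 18, 15 were above 0, 4 at least 2-fold higher and 0 lower, with a median of 0.63, which was 0.35 without HEC 7 and HEC 20. Their levels added up to 86.2 to 145 reads per 10000 in high-score cells (median 99.3), against 50.3 to 140 in low-score cells (median 77.9) and a median of 43.0 in AEC. *Nr4a1*, an immediate early nuclear receptor, averaged 0.779 ± 0.641 in high-score cells and 0.145 ± 0.164 in low-score cells. *Jund*, an AP-1 factor, averaged 4.29 ± 1.88 in high-score cells and 2.04 ± 0.621 in low-score cells. *Zfp36* of the 14 highest genes is also on this list, and *Egr1* was at 1.05. *Jund*, at 1.04, and *Egr1* were under 2-fold, at 0.86 and 0.79, with HEC 7 and HEC 20 left out and the rest ranked again. The part of dissociation in these differences was not tested. The 13 genes of inflammation and interferon had a median of -0.19, with *Ifitm1* at 1.82 (0.93 without HEC 24) and *Nfkbia* at -1.02. Without HEC 7 and HEC 20 the median was 0.15 and *Nfkbia* was at -0.93.

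Markers of other cells were checked for the same reason. Of 14 erythroid markers only 7, all globins, had a mean of at least 0.1. All 7 were above 0 with a median of 0.68, and none was 2-fold higher. The 14 added up to 27.1 to 188 reads per 10000 in high-score cells (median 49.2), against 26.4 to 97.1 in low-score cells (median 37.5) and a median of 15.4 in AEC. *Hbb-y*, an embryonic globin, averaged 25.9 ± 19.6 in high-score cells and 16.1 ± 7.61 in low-score cells, with 69.9 in HEC 9. Reads of near-identical globin genes may have been split between them. Of 16 macrophage and monocyte markers 5 had the mean asked for, with a median of 0.80 and 2 at least 2-fold higher. Their sum was 0.331 to 4.81 in high-score cells (median 2.11), against 0.124 to 2.32 in low-score cells (median 0.888). The 2 were *Prtn3* and *Mpo*, proteases and enzymes of myeloid granules, at 1.96 and 1.16, with means of 0.462 and 0.443 in high-score cells and 0.0444 and 0.142 in low-score cells, and *Mpo* was at 0.95 without HEC 7 and HEC 20. *Csf1r*, the receptor that defines macrophages, had a median of 0.0227 in high-score cells and 0 in low-score cells, and its ratio of 0.80 became -0.06 without HEC 24. Of 10 lymphoid markers none had the mean asked for, and 9 mast cell and granulocyte markers were at 0 in every cell of both groups. The 12 mesenchymal markers had 4 with that mean, 2 higher (*Acta2* and *Postn*) and 1 lower (*Col3a1*). *Postn* and *Col3a1* were under 2-fold, at 0.75 and -0.46, with HEC 7 and HEC 20 left out and the rest ranked again. The sum of the 12 was 2.38 to 31.6 in high-score cells (median 5.19), against 1.26 to 11.2 in low-score cells (median 3.07). Neural and epithelial markers had 2 of 9 and 1 of 8 with that mean and medians of -0.68 and -0.55, and 1 of 10 megakaryocyte markers, *Vwf*, was at -0.61. The part of other cells' RNA in the differences above was not tested.

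Isoforms were compared in 1076 genes that had at least 2 transcripts and a mean of at least 1 in both groups. A transcript's share is its part of the gene's summed level in a group, each cell counted by its reads per 10000. In 114 of these genes (10.6%) a share differed by 20 percentage points or more, and in 30 (2.79%) at least 75% of the pairs of cells went the same way. A share in a single cell rests on few reads, and a pooled share can be carried by few cells, so medians over cells are given beside the main shifts.

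Some of the shifts exchanged coding sequence. The stretches are shown for 3 genes of chromatin and RNA processing, taken from GENCODE M21 transcripts on GRCm38, with capitals for the bases that 1 isoform holds and the other lacks, and with 12 bases of each neighbour in lower case. They lie at chr10:75916773-75916799 (minus strand, 27 bases, in Smarcb1-201 and not in Smarcb1-202), chr2:75659324-75659389 (plus strand, 66 bases, in Hnrnpa3-202 and not in Hnrnpa3-203) and chr9:95500688-95500819 (minus strand, 132 bases, in U2surp-209 and not in U2surp-201). All 3 lengths are multiples of 3, so the reading frame is the same on both sides. The genes were chosen after their values were seen.
Smarcb1 stretch: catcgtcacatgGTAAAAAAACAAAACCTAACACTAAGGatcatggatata
Hnrnpa3 stretch: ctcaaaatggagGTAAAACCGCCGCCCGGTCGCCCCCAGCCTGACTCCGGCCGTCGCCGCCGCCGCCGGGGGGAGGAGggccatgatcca
U2surp stretch: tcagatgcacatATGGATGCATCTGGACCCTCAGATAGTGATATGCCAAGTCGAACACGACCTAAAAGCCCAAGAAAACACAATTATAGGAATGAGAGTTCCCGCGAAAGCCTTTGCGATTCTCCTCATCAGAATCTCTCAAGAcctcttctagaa
*Smarcb1* encodes a core subunit of the SWI/SNF chromatin remodeller. Smarcb1-202, which lacks the 27 bases, made up 9.38% to 85.0% of the gene's reads in high-score cells (median 35.1%), against 0% to 37.6% in low-score cells (median 0%), and was above in 57 of 64 pairs. The gene itself was level, at 1.59 reads per 10000 in high-score cells and 1.43 in low-score cells. The AEC median was 34.2%, near that of the high-score cells. *Hnrnpa3* encodes an RNA-binding protein. Hnrnpa3-202, with the 66 bases near its start, had a median share of 66.8% in high-score cells and 50.5% in low-score cells, and Hnrnpa3-203 one of 27.4% in high-score cells and 49.5% in low-score cells. *U2surp* encodes a protein of the U2 snRNP. U2surp-209 had a median share of 27.9% in high-score cells and 0% in low-score cells with 54 pairs above, and U2surp-201 one of 16.7% in high-score cells and 55.0% in low-score cells. The Hnrnpa3 and U2surp isoforms also differ elsewhere: U2surp-201 holds 3 coding bases that U2surp-209 lacks, and Hnrnpa3-203 holds 183 coding bases between chr2:75662845 and chr2:75663672 that Hnrnpa3-202 lacks, more than the 66 shown.

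The 8 largest shifts by the naming rule included transcripts that are not translated as annotated. Eif4g3-208, a processed transcript of a translation initiation factor gene, made up 0% to 75.9% of its gene's reads in high-score cells (median 67.7%), against 70.8% to 97.8% in low-score cells (median 90.7%), and was below in 61 of 64 pairs. The whole gene, all its transcripts together, had 2554 reads in high-score cells and 550 in low-score cells. Spcs2-201, the coding transcript of a signal peptidase subunit, had a median share of 46.5% in high-score cells and 97.8% in low-score cells. Spcs2-204, annotated for nonsense-mediated decay, had a pooled share of 31.8% in high-score cells and 2.85% in low-score cells, with medians of 16.5% in high-score and 0% in low-score cells. Of *Ccnl1*, a cyclin that acts in splicing, Ccnl1-201 had a median share of 49.6% in high-score cells and 97.7% in low-score cells. Ccnl1-203, annotated for nonsense-mediated decay, had a pooled share of 30.6% in high-score cells and 2.08% in low-score cells, but medians of 7.67% in high-score and 0% in low-score cells. It was above in 32 of 64 pairs and below in 12, with the rest tied. Nop56-213, a retained-intron transcript of a nucleolar gene, had a pooled share of 34.8% in high-score cells and 4.16% in low-score cells, with medians of 14.3% in high-score and 0% in low-score cells. The pooled difference was 8.82 points without HEC 10. The coding transcripts Ssr2-207, Ube2k-201, Slc3a2-201 and Qk-204 all had a smaller pooled share in high-score cells, by 30.4, 33.7, 30.1 and 29.8 points. Other coding transcripts of these genes had larger ones. Pooled shares in high-score against low-score cells were 32.7% against 2.73% for Ssr2-201 and 31.6% against 10.7% for Slc3a2-202. For *Qk* they were 20.8% against 1.26% for coding Qk-206, and 39.8% against 17.4% for Qk-202, annotated for nonsense-mediated decay. Both Ube2k-204 (coding) and Ube2k-211 (retained intron) had larger pooled shares in high-score cells.

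**Figure D4:**
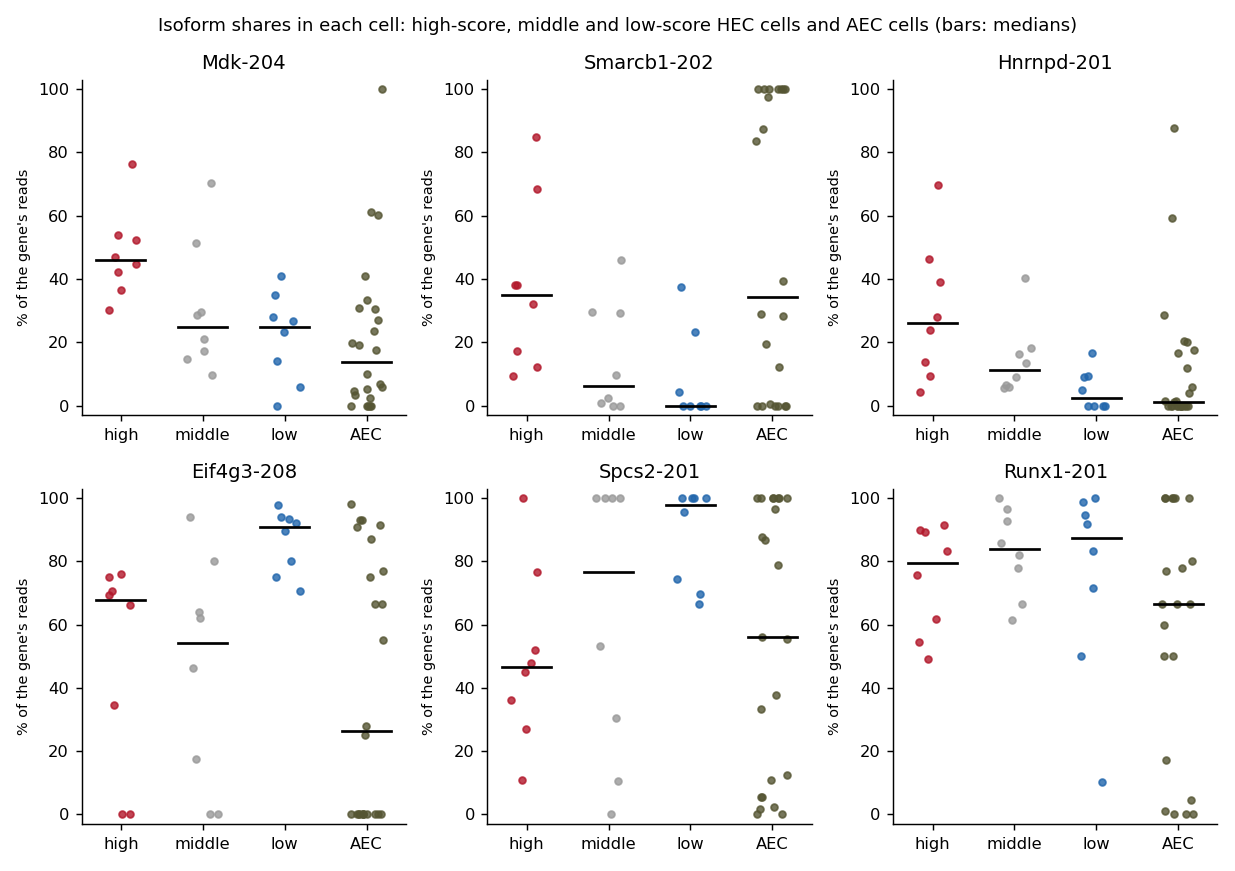
Share of the gene's reads (percent) taken by 6 transcripts in each cell, for high-score, middle and low-score HEC and for AEC, with dots for cells and bars for medians. Mdk-204 and Smarcb1-202 have larger shares in high-score than in low-score cells, Eif4g3-208 and Spcs2-201 smaller ones, and Runx1-201 has medians of 79.5% in high-score and 87.5% in low-score cells.

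Other shifts were seen among genes named after their values were seen. Mdk-204, a transcript of the growth factor midkine with its own non-coding 5′ start, made up 30.1% to 76.5% in high-score cells (median 45.9%), against 0% to 41.0% in low-score cells (median 25%), with 61 of 64 pairs above. Hnrnpd-201, of the AU-rich element binder AUF1, made up 4.38% to 69.6% in high-score cells (median 26.1%), against 0% to 16.7% in low-score cells (median 2.51%). Srsf10-205, of a splicing factor, had a median share of 47.6% in high-score cells and 6.06% in low-score cells. Xpo1-204, of the main nuclear exporter, had one of 98.9% in high-score cells and 76.0% in low-score cells. Arid1a-202, of a SWI/SNF subunit, had one of 90.6% in high-score cells and 98.4% in low-score cells.

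Each of the 6 score genes had the same main transcript in both groups. *Runx1* was read mostly as Runx1-201, which starts at the distal promoter shown above: it made up 49.1% to 91.6% in high-score cells (median 79.5%), against 10.3% to 100% in low-score cells (median 87.5%). Runx1-202, which starts at the proximal promoter, had a median share of 11.8% in high-score cells and 11.5% in low-score cells, with 35 pairs above and 29 below. Its pooled share was 19.9% in high-score cells and 27.7% in low-score cells, and that difference of -7.82 points was 1.17 without HEC 4. Those shares rest on 7693 *Runx1* reads in high-score and 810 in low-score cells. By pooled share, Spi1-201 made up 95.8% in high-score cells and 99.3% in low-score cells, and Coro1a-201 97.6% in high-score cells and 99.8% in low-score cells. Ptpn6-202 made up 98.3% in high-score cells and 93.7% in low-score cells, and Myb-203 93.1% in high-score cells and 97.9% in low-score cells. Gfi1-203 made up 81.6% in high-score cells and 92.4% in low-score cells, but 28.4% in the middle cells, where *Gfi1* was lowest of the 3 HEC groups.

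Transcripts were also counted on their own. Of 2880 transcripts with a mean of at least 0.5, 111 (3.85%) were at least 2-fold higher in high-score cells and 111 (3.85%) at least 2-fold lower. With at least 48 of 64 pairs the same way, and sex-linked genes left out, 79 of 2878 (2.74%) were higher and 49 (1.7%) lower. Of the 79, 42 belonged to genes that were under 2-fold, and 17 to genes within 0.5 of a log2 ratio of 0. Of the 49, 8 belonged to genes under 2-fold. Among the 17, named after their values were seen, Hnrnpd-201 averaged 1.39 ± 1.23 in high-score cells and 0.279 ± 0.405 in low-score cells, with its gene at 0.30. Lmo2-208, of a partner of Tal1, had a log2 ratio of 1.19, with its gene at 0.19. Srsf3-201, annotated for nonsense-mediated decay, was at 1.09 with its gene at -0.11.

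When every cell was thinned to 90000 reads and the groups kept, 107 genes were at least 2-fold higher, of which 61 were among the 78, and 147 were at least 2-fold lower, of which 98 were among the 118. All 14 highest and all 14 lowest genes remained at least 2-fold apart. *P2rx1* then had a log2 ratio of 1.68, *Arhgdib* 1.46, *Gja4* -2.19 and *Id3* -2.14, and *Dok2* had the smallest of the 14 highest at 1.11. Among the other genes named above, *Kit* (0.81), *Nop2* (0.88), *Jund* (0.99), *Hk2* (0.48), *Dll4* (-0.75), *Plvap* (-0.86) and *Nfkbia* (-0.82) were then under 2-fold.

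**Figure D5:**
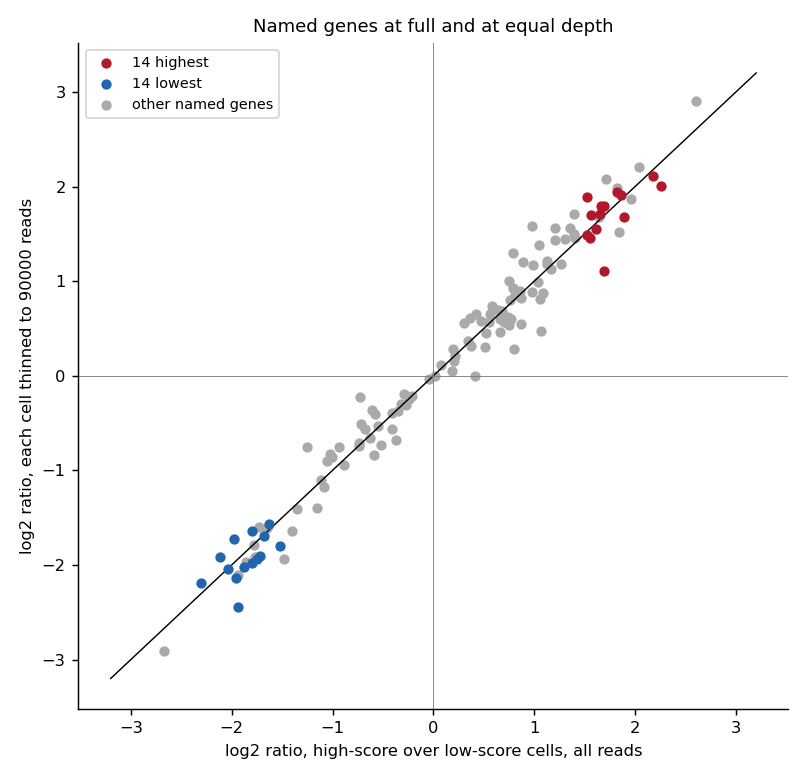
Log2 ratio of each named gene from all reads (horizontal) against that from cells thinned to 90000 reads (vertical), with the 14 highest genes in red, the 14 lowest in blue and the other named genes in grey. All 14 red and all 14 blue points stay beyond 2-fold in their own direction.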

How the data were processed

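Single cells sorted as HEC or AEC from the embryonic AGM region were read as full-length cDNA on a nanopore sequencer. The deposited tables hold, for each cell and transcript, a signal that the authors scaled to 10000 per cell; the submitters' processing notes name minimap2 2.18-r1015, Salmon 1.1.0 and the build mm10. The sources used here do not state how reads were shared among isoforms. Every value was a whole multiple of 1 read (100% within 0.01 read), which gave the reads per cell, from 13261 to 8897958 over the 48 cells. PCR copies were not told apart, so a read is not an independent molecule.

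Of 52927 transcripts in each table, 52799 matched GENCODE M21 and were summed to 21435 genes, and 128 did not match and were left out. No pair of cells was identical. The software was numpy 2.4.6 and pandas 2.3.3 for the tables, matplotlib 3.10.9 for plots and scipy 1.17.1, run under Python 3.11.15. Genes counted had a mean of at least 0.5 over the 24 HEC and a value above 0 in at least 4 of the 8 cells of either group. List members needed a mean of at least 0.1. For isoforms, the gene had to reach a mean of 1 in both groups and be above 0 in 6 or more of 8 cells.

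With 1 cell a sample and no embryo named, no test was made. The named genes were the 14 highest and 14 lowest by log2 ratio with at least 48 of 64 pairs the same way, up to 4 members of each list by the size of their ratio, a fixed set of blood and endothelial genes, and the 8 genes with the largest isoform shifts; some of these are not reported here. The cells, members and lists were chosen with earlier results of these data known. The contrast between groups of cells and the isoform shares were tested on simulated data, and the ranking by score was not. Alternatives changed the pseudocounts, the score, the number of cells, the depth (thinned to 90000 reads, seed 11), the scaling, the summary and the minimums, and left out each cell in turn. No doublet caller was run on these sorted single-cell libraries.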

Additional observations from a re-analysis of the deposited data

How the results depend on the processing

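The 14 highest genes stayed above 0 and the 14 lowest below 0 under all alternatives run, and score pseudocounts of 0.01 or 1 picked the same 16 cells. Over lists and counts, 929 values stayed within their limit and 15 went beyond it. The limit was the spread between cells for a list and a fixed fold for a count. Over single genes, 4892 values moved by less than the spread between cells and 82 by more. A further 4 values, of genes at least 2-fold apart as reported, changed sign. These 4 were *Postn* at -0.020 with a score without *Coro1a*, and *Hey2* at 0.031, *Lama4* at 0.19 and *Col3a1* at 0.18 with medians in place of means; the cause was not tested. Ratios nearer 0, such as those of *Gja5*, *Cdh5* and *Gfi1b*, also changed sign under some settings. The count of genes at least 2-fold higher, 78 as reported, was 123 with a ratio pseudocount of 0.01, 2 with 1, 165 with 6 against 6 cells, 38 with 12 against 12, 140 with the difference of mean log2 values, 223 with medians, 525 with a minimum mean of 0.1, 7 with a minimum of 2, and 47 without HEC 7 and HEC 20 ranked again, an alternative chosen after seeing the data. The count at least 2-fold lower, 118 as reported, was 15 with a ratio pseudocount of 1, 65 with 12 against 12 cells, 197 without the 3 deepest and 3 shallowest cells, 61 with the difference of mean log2 values, 533 with a minimum of 0.1 and 9 with a minimum of 2. Leaving out each cell in turn gave 82 to 114 higher and 113 to 146 lower. A score without 1 of its genes kept 7 to 8 of the high-score and 6 to 7 of the low-score cells, and 33 to 51 of the 78 higher genes. Median-of-ratios scaling moved the median of all genes to -0.10. Depth limits values near 1 read, and a ratio at that level says little. No paired analysis was possible because the labels name no embryo and the numbers only name cells.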

Other observations

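Some cells combined features of both ends of the ranking. HEC 9, a high-score cell, had the highest *Cdh5* (16.4 reads per 10000), *Gja4* (2.27), *Hey1* (0.756) and *Jag1* (0.69) of the 8 high-score cells, as well as the highest *Hbb-y* (69.9). HEC 12, also a high-score cell, had 39.1 reads per 10000 of *Gja5* and the highest *Ptprc* of either group at 0.691. HEC 18, one of the middle cells, had 7.27 reads per 10000 of *Gja4* and 3.55 of *Nrp1*, the highest of the middle cells for both. HEC 7, with the lowest score, had the highest *Gja4* (17), *Emcn* (12), *Plvap* (22.1) and *Sparc* (21.2) of the low-score cells. These cells were singled out after their values were seen.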
